A study of Homo sapiens with 6 samples.

Results

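Zinc finger genes with listed methylation changes were examined in the human hepatocellular carcinoma cell line HepG2 after overexpression of DNMT3A, a de novo DNA methyltransferase. Regions were taken from the deposited lists of differentially methylated regions wherever they overlapped hg38 windows around ZNF844, ZNF558, ZNF536, ZNF879, ZNF860 or ZNF469. In total 11 of the 4344 listed regions did so, 5 in the list of pair 1 and 6 in that of pair 2. No region of pair 3 and no region of the ZNF469 window was listed. The 6 genes had been picked as carrying recurrent changes, so the levels and directions of these regions are given as a description without a test. The label of recurrence held for 4 sites, in ZNF844, ZNF558, ZNF879 and ZNF860, each listed in pairs 1 and 2. It did not hold for ZNF536, with 3 separate sites listed once each, or for ZNF469 in the window used.

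The assay was reduced representation bisulfite sequencing (RRBS), in which MspI cuts DNA at CCGG and bisulfite converts unmethylated cytosines. Cells carrying a control lentivirus (genotype label WT) were compared with cells carrying a lentivirus for DNMT3A (genotype label DNMT3A overexpression), with 3 libraries per group and no time point in the labels. Both groups are the same line and both received a lentivirus, and nothing in the labels says that the 3 libraries came from separate cultures or clones. Each list compares 1 overexpressing library with the like-numbered control, here called a pair. Mapped reads per library ranged from 25764323 to 29924507, but the lists give no reads per region, so the depth behind each level is unknown. Identity of the line could not be checked by marker genes, since expression was not measured.

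C2H2 zinc finger proteins bind DNA through arrays of short zinc-coordinating fingers and form the largest family of human transcription factors. Many also carry a KRAB domain, which recruits the corepressor TRIM28 and through it the histone H3 lysine 9 methyltransferase SETDB1, and large clusters of such genes lie on chromosome 19. Their promoters are often CpG-rich. Methylation of a CpG-rich promoter is commonly associated with low expression, which was not measured in these libraries.

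The RefSeq promoters (GRCh38.p14, from 250 bases before to 50 after the start site) of the 4 genes with a repeated region are shown because the listed regions lie in them or shortly downstream. In ZNF558 (chr19:8832255-8832554, minus strand) capitals mark the 96 bases that lay inside the listed region of both pairs.

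ZNF558: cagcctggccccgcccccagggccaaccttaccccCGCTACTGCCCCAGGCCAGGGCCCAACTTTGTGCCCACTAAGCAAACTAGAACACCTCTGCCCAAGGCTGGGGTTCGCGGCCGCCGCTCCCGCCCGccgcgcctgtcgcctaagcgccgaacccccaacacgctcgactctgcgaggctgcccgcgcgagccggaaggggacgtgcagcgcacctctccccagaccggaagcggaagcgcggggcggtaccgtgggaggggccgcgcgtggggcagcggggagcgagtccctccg

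In the other 3, capitals mark CCGG, the letters at which MspI cuts. The windows are chr19:12064481-12064780 for ZNF844, chr5:179023554-179023853 for ZNF879 and chr3:31981500-31981799 for ZNF860, all on the plus strand.

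ZNF844: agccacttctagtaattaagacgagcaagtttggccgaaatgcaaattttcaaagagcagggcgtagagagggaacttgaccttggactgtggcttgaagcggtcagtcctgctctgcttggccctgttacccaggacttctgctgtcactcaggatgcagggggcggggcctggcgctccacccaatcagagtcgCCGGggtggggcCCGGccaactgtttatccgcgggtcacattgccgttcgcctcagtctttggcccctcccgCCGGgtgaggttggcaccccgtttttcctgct

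ZNF879: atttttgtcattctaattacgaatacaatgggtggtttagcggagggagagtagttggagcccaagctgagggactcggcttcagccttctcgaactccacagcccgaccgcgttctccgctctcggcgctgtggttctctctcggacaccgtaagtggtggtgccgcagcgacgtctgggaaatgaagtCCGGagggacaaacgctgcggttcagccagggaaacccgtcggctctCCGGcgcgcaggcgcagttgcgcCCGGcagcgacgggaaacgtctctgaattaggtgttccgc

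ZNF860: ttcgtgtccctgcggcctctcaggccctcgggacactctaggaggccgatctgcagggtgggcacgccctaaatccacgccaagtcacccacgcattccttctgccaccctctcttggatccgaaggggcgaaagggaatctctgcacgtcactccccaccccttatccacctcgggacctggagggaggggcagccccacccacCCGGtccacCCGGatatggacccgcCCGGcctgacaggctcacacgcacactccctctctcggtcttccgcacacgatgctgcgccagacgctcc

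The listed regions of the last 3 genes begin after 171, 77 and 29 further bases. CCGG occurred 3 times in each of these windows and 2 times in that of ZNF558, and 63.1% of 35116 promoter windows of the same length, and 88.6% of those of genes with ZNF symbols, held it at least once. CpG dinucleotides numbered 34 in the ZNF558 window, 30 in ZNF879, 21 in ZNF860 and 16 in ZNF844, against a median of 14 over all windows and 22 over 519 windows of genes with ZNF symbols. The ZNF558 window also held CCGGAAG, letters that match the core bound by ETS family factors and include an MspI site, at 2 places on the strand shown, beginning at positions -55 and -21 from the start site. On either strand these letters were in 10.3% of all windows and 35.5% of windows of ZNF genes, and they were not in the windows of ZNF844, ZNF879 or ZNF860.

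Of the 11 regions, 9 were lower and 2 were higher in the overexpressing library, while 18.4% of all listed regions were lower and 81.6% higher. By list, 4 of 5 regions were lower in pair 1, where 17.9% of listed regions were, and 5 of 6 in pair 2, where 18.3% were. The genes were chosen from these lists, so nothing is read from that contrast. All levels below are mean methylation levels of a region, as fractions from 0 to 1.

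**Figure D1:**
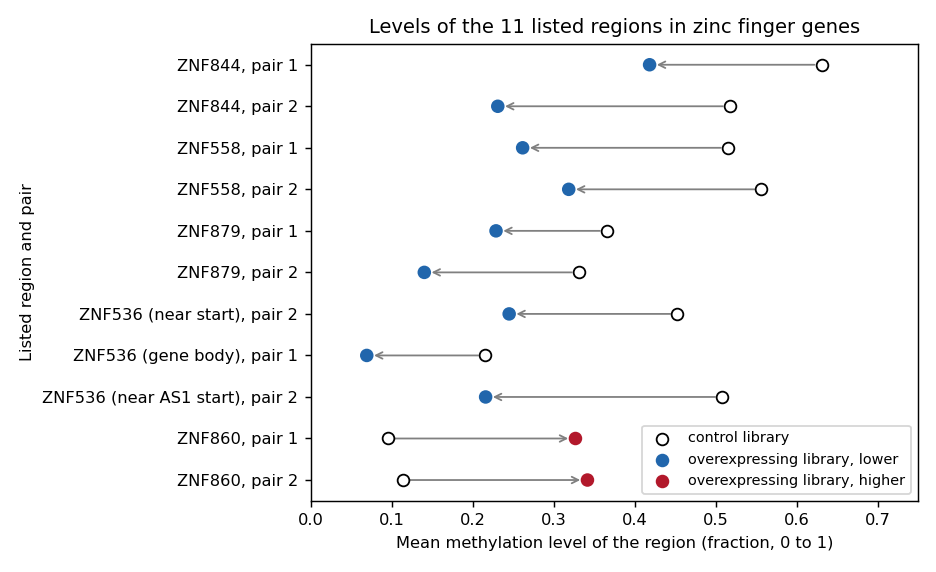
Mean methylation level (x axis, fraction) of each of the 11 listed regions (y axis, gene and pair) in the control library (open circles) and the overexpressing library (filled circles), joined by an arrow. The 9 regions of ZNF844, ZNF558, ZNF879 and ZNF536 point to lower levels, and the 2 of ZNF860 point from about 0.1 to above 0.3.

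ZNF844 encodes a KRAB zinc finger protein of the chromosome 19 clusters. Its region at chr19:12064952-12065046 had the same boundaries and the same number of listed CpG sites, 28, in both pairs and lies inside the gene, 221 to 315 bp downstream of the start site. The level was 0.630 in control library 1 and 0.517 in control library 2, against 0.418 and 0.231 in overexpressing libraries 1 and 2. Both overexpressing values were below both controls, although overexpressing library 1 stood 0.0991 under the lower control. The difference was -0.249 ± 0.0525 (SD, n = 2 pairs). The 2 overexpressing libraries differed by more than the 2 controls, with SDs of 0.132 and 0.0800.

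ZNF558, a KRAB zinc finger gene also on chromosome 19, carried its regions just upstream of the start site used in the promoter window. They are still inside the RefSeq extent of the gene, which runs on to position 8838144. In pair 1 the region at chr19:8832323-8832519 went from 0.515 in control library 1 to 0.262 in overexpressing library 1. In pair 2 the region at chr19:8832424-8832564 stood at 0.556 and 0.319. The controls and the overexpressing libraries did not overlap, and the differences of both pairs were close, -0.246 ± 0.0111 (SD, n = 2 pairs). The evidence behind them was not alike: pair 1 listed 39 CpG sites and pair 2 listed 7. By the authors' area score, a signed measure given for each region, the pair 1 region ranked 9 of 266 losses of its list and the pair 2 region 238 of 262.

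The reference sequence shows where the 2 ZNF558 regions part. The pair 1 region holds 22 CpG dinucleotides, so its 39 listed sites exceed 1 per dinucleotide. Among 113 listed regions lying wholly inside a promoter window, 88 had more sites than dinucleotides and none had more than 2 per dinucleotide, as counting the cytosines of both strands separately would give. The 96 bases common to both pairs hold 7 of the 22 dinucleotides. The remaining 15, nearer the start site, thus lay in the listed region of pair 1 only. Their levels in pair 2 are not known, and a lack of coverage there cannot be told apart from a lack of difference.

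This stretch is shared with a second gene. The start sites of ZNF558 and of MBD3L1, which encodes a testis-expressed relative of the methyl-CpG-binding protein MBD3, are 73 bp apart on opposite strands. The MBD3L1 start site at position 8832377 falls inside the pair 1 region. A change there can be assigned to either gene.

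ZNF879, a KRAB zinc finger gene on chromosome 5, had the smallest losses among the repeated sites. Its region at chr5:179023937-179023999 in pair 1, with 19 listed sites, went from 0.366 in control library 1 to 0.229 in overexpressing library 1. In pair 2 the region at chr5:179023931-179023998, with 11 sites, stood at 0.331 and 0.140. The groups did not overlap, and the gap between the lower control and the higher overexpressing library was 0.102. The difference was -0.164 ± 0.0380 (SD, n = 2 pairs). Both regions lie inside the gene, from 127 to 195 bp after the start site.

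ZNF536 encodes a zinc finger repressor known from neuronal differentiation and spans 487995 bp in RefSeq. Its 3 regions were all lower, each with 15 listed sites, but they lie at different places. The one at chr19:30228640-30228705, 130 bp after the nearest of the gene's start sites, stood at 0.453 in control library 2 and 0.245 in overexpressing library 2. Deep in the gene body, chr19:30626812-30626910 stood at 0.215 in control library 1 and 0.0693 in overexpressing library 1. The third, chr19:30670478-30670607, stood at 0.508 in control library 2 and 0.216 in overexpressing library 2 and lies 272 bp from the start site of the antisense noncoding gene ZNF536-AS1. Averaged by gene, the difference was -0.198 ± 0.0733 (SD, n = 2 pairs), but the pairs contribute different sites and no site of ZNF536 was seen more than once.

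ZNF860, a C2H2 zinc finger gene on chromosome 3, was the exception in direction. In pair 1 its region at chr3:31981829-31982149, with 27 listed sites, went from 0.0952 in control library 1 to 0.327 in overexpressing library 1. In pair 2 the region at chr3:31981910-31982073, with 16 sites and wholly inside the former, stood at 0.114 and 0.342. Both overexpressing libraries were above both controls by at least 0.213, and the difference of 0.230 ± 0.00269 (SD, n = 2 pairs) varied least among the 4 repeated sites. The regions lie 79 to 399 bp after the start site. They also fall inside OSBPL10, which encodes an oxysterol-binding-protein-related protein and has a start site 488 bp from that of ZNF860 on the opposite strand.

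ZNF469, a gene linked to brittle cornea syndrome, had no listed region in the window used. RefSeq gives the gene a longer extent, chr16:88100931-88440753, and within it 7 regions were listed, 6 higher and 1 lower. The region at chr16:88232965-88233057, with 5 sites, was higher in pair 1 (0.0307 in the control, 0.363 after overexpression) and in pair 3 (0.0567 and 0.462). The nearest region outside the window used, 4912 bp before it at chr16:88375008-88375088, was lower in pair 1 (0.834 and 0.364). The other 4 were each listed once, with differences from 0.0691 to 0.271, and the other genes' nearest outside regions were at least 73.7 kb away.

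Levels of controls and overexpressing libraries did not overlap at any of the 4 repeated sites. Among all 420 distinct regions listed with 1 direction in pairs 1 and 2 this was so in 99.5%, since a region is listed only when its pair differs. Merging overlapping regions of the 3 lists gave 3313 distinct regions, of which 1.12% were lower and 19% higher in every pair that listed them, with at least 2 pairs doing so. Regions lower in both pair 1 and pair 2 numbered 16, or 3.63% of the 441 distinct regions those lists share, and 3 of these 16 were ZNF558, ZNF844 and ZNF879.

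The absence of all of these sites from pair 3 was the rule among losses but not among gains. Of the 16 regions lower in pairs 1 and 2, 18.8% were also listed in pair 3, against 65.6% of the 404 regions higher in both. The losses listed in all 3 pairs lay at RXRG, GRIN2D and DNMT3A, the last being the overexpressed gene itself. The repeated losses of ZNF558, ZNF844 and ZNF879 thus shared their absence from pair 3 with 10 of the other 13. The ZNF860 gain was among the smaller part of gains that pair 3 did not list. The nearest region listed in pair 3 lay 114 kb from the ZNF879 site, 266 kb from ZNF844, 669 kb from ZNF558 and 856 kb from ZNF860. The lists hold called regions only, so the levels of these sites in pair 3 are not known, and a site that was not covered there cannot be told apart from one that did not differ.

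Most of the regions lay near a start site. The 11 regions make up 7 distinct sites, of which 5 lay within 500 bp of a start site of their own gene and 6 within 500 bp of a start site of any gene. The other 2 sites of ZNF536 were over 250 kb from a start site of that gene. Among the 789 other losses of the 3 lists 22.7% lay that close to a start site, and among the 3544 other gains 11.1%. These shares are no matched comparison, since the windows are drawn around genes and mostly short, which favours start sites. The distance of 500 bp was chosen after the positions had been seen.

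**Figure D2:**
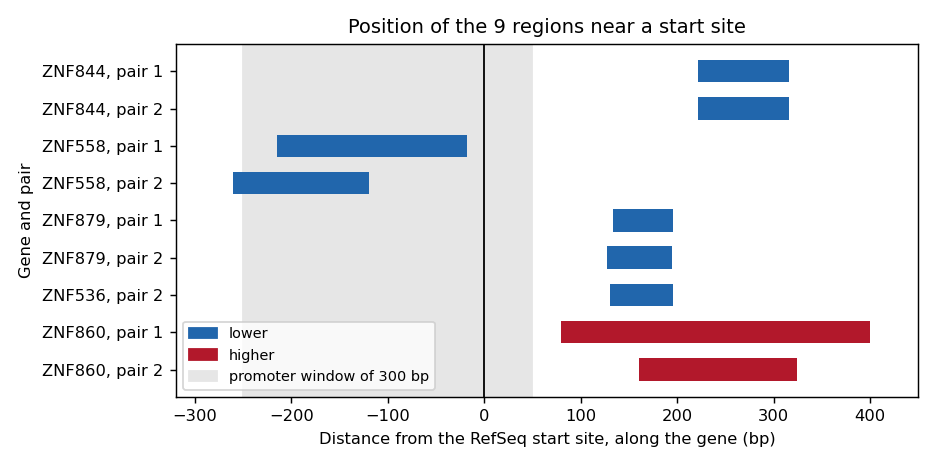
Position of the 9 regions within 500 bp of a start site of their own gene, as distance in bp along the gene (x axis) for each gene and pair (y axis), with blue bars lower, red bars higher and the 300-base promoter window in grey. ZNF558 lies upstream of its start site, and ZNF844, ZNF879, ZNF536 and ZNF860 lie between 79 and 399 bp downstream.

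The 9 losses were also dense in listed sites. Their density had a median of 19.8 listed sites per 100 bp (range 4.96 to 30.2), against 12.8 over the other losses, and the lowest value was that of ZNF558 in pair 2. Listed sites are not CpG dinucleotides. The median is the ZNF558 region of pair 1, with 39 listed sites on 22 dinucleotides. Sites listed in both pairs enter once per pair. Of the 9, 8 lay within 500 bp of a start site of any gene, against 22.7% of the other losses, so the densities are no matched comparison. The 9 losses started from a median control level of 0.508 (range 0.215 to 0.630) where the other losses had 0.585, and their median difference was -0.212 against -0.271. Ranked by size of the difference, ZNF844 was 188 of 266 losses in pair 1 and 120 of 262 in pair 2, and ZNF879 was 246 and 199. No site of the 5 genes was among the 100 largest losses or gains of its list by difference. By the area score most regions stood higher, with ZNF844 at 39 and 28 and ZNF879 at 92 and 96 in pairs 1 and 2. ZNF558 went from 149 by difference to 9 by area in pair 1, but from 159 to 238 in pair 2. The ZNF536 region at chr19:30670478-30670607 ranked 115 by both.

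**Figure D3:**
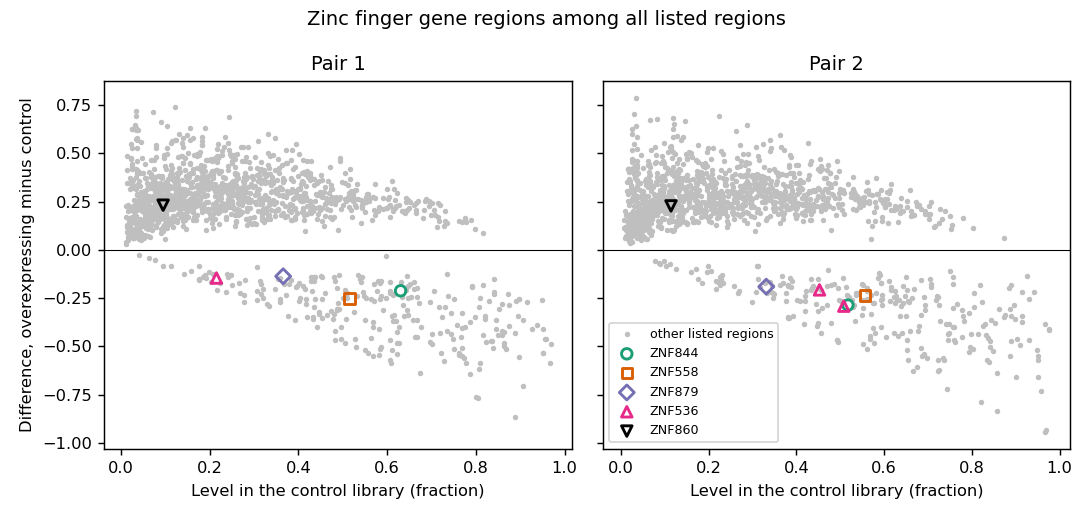
Level in the control library (x axis, fraction) against the difference of levels, overexpressing minus control (y axis), for all regions listed in pair 1 (left) and pair 2 (right), with the zinc finger gene regions as coloured symbols. The losses sit at control levels from 0.215 to 0.630, away from the highly methylated regions with the largest losses, and ZNF860 sits among the gains from low levels.

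Around the 5 genes few other regions were listed. Neighbour genes were counted without the regions already described for the 5 genes. Within 250 kb of ZNF844 lie 12 protein-coding genes, all with ZNF symbols, and none had another listed region within 1 kb. The same was true of the 8 neighbours of ZNF558, the 3 of ZNF860 and the 1 of ZNF536. Of these neighbours, MBD3L1 and OSBPL10 do overlap the regions described for ZNF558 and ZNF860, so those regions are not confined to the zinc finger genes. Beside ZNF879, 2 of 6 neighbours had listed regions. They were ZFP2, another zinc finger gene, with a gain in pair 1 (0.273 in the control, 0.469 after overexpression), and ADAMTS2, a procollagen-processing protease gene, with 4 gains and 1 loss, none at a site listed in 2 pairs. Of the 11 neighbours of ZNF469, SLC7A5, BANP and ZFPM1 had listed regions, all of them higher.

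The wider family was counted over the 477 protein-coding RefSeq genes whose symbol is ZNF and a number, 240 of them on chromosome 19. A listed region lay within 1 kb of 26 of them, or 5.45%, against 8.84% of all 20056 protein-coding genes. Lower regions only were found at 14, higher regions only at 11 and both at ZNF469. Leaving aside the 6 genes chosen for their changes, 10 of 20 had lower regions only (50%), against 19.7% of the 1773 protein-coding genes with a listed region. Without pair 1 the shares were 4 of 10 (40%) and 18.7% of 1350. No test was made of these shares, and overlapping genes can share a region.

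Among the 20 other ZNF genes, 9 had a region within 500 bp of a start site, and it was lower at 6 and higher at 3. ZNF559 and ZNF703, both higher in pair 2 with differences of 0.165 and 0.163, have no start site in the promoter table. Their distance from a start was not measured, and they are not among the 9. For protein-coding genes without a ZNF symbol, 31.7% of 312 with a region that close had lower regions only. Without pair 1, the 9 genes came down to 4, with 2 lower, while 33.2% of 241 genes without a ZNF symbol had lower regions only. The 6 lower genes, named after their values had been seen, were ZNF3, ZNF48, ZNF347 and ZNF805 in pair 1 and ZNF197 and ZNF575 in pair 3. Their control levels ran from 0.266 at ZNF805 to 0.957 at ZNF575 and their differences from -0.139 at ZNF347 to -0.263 at ZNF575. None of the 6 was listed in a second pair. ZNF197 and ZNF575 show that losses at starts of ZNF genes were listed in pair 3 as well, though at other genes than in pairs 1 and 2.

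Beyond the 6 genes, ZNF491 and ZNF701 were listed in at least 2 pairs, both higher. At ZNF491, on chromosome 19, overlapping regions 216 to 394 bp after the start stood at 0.0329 and 0.139 in pair 2 and at 0.0402 and 0.122 in pair 3 (control and overexpressing library). The 2 regions of ZNF701 lie at separate places, with differences of 0.217 in pair 2 and 0.118 in pair 3. Among all ZNF genes with regions in at least 2 pairs of 1 direction, those with losses were ZNF536, ZNF558, ZNF844 and ZNF879, and those with gains were ZNF469, ZNF491, ZNF701 and ZNF860.

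**Figure D4:**
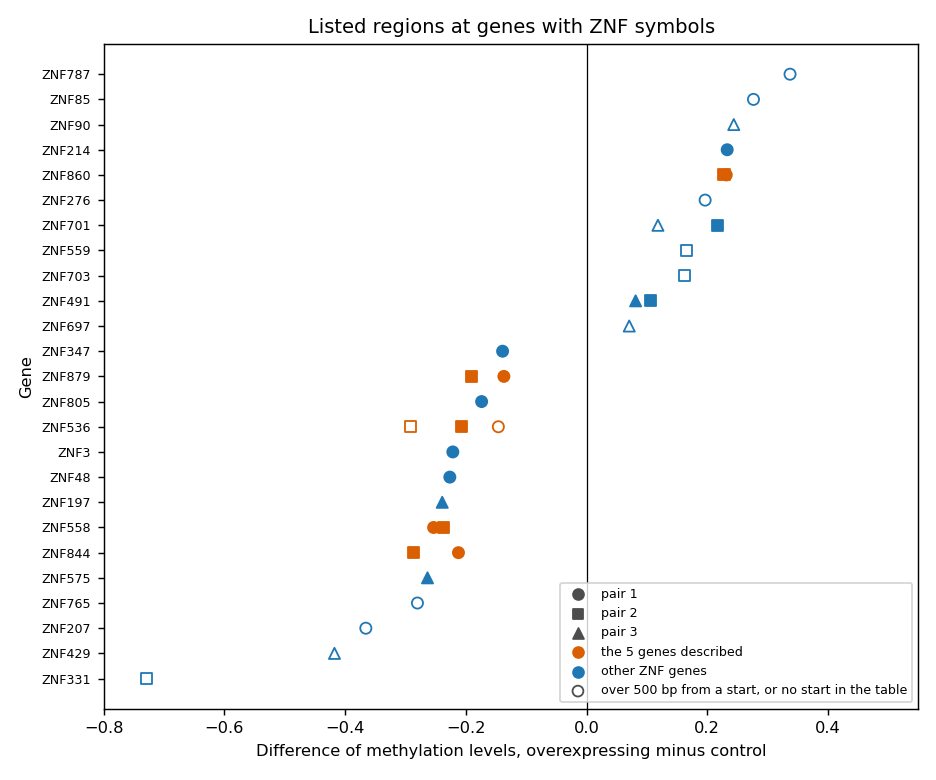
Difference of methylation levels (x axis, overexpressing minus control) of every region listed within 1 kb of a gene with a ZNF symbol (y axis, ordered by mean difference, ZNF469 left out), by pair (symbol shape), with orange for the 5 genes described and filled symbols for regions within 500 bp of a start site. Losses of ZNF844, ZNF558 and ZNF879 appear in pairs 1 and 2, and the other ZNF genes near a start were lower at 6 genes and higher at 3.

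Genes of the KRAB corepressor machinery were read from a list of 22, which holds TRIM28, SETDB1, the HP1 genes CBX1, CBX3 and CBX5, the HUSH complex genes and associated chromatin proteins. A listed region lay within 1 kb of 1 of them, while 8.84% of all protein-coding genes had one. SETDB1, at chr1:150925561-150925624, was lower in pair 1, at 0.723 in the control against 0.376 after overexpression, and was not listed in pairs 2 and 3. No region was called at TRIM28 or the other 20, and levels there are unknown.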

How the data were processed

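The members and lists were chosen with earlier results of these data known. RRBS libraries (3 control, 3 DNMT3A-overexpressing) were grouped by their titles. Per the file headers, the authors gave each listed region a mean methylation level per library as a fraction, a difference of the levels, the number of CpG sites and an area score, which served here for ranks within a list. The deposited read counts and the percent of reads mapped are per library. Per the submitters' processing notes, hg38 was the build. For the aligner, the caller and its settings, nothing is given in the sources used here.

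Regions overlapping a gene window by at least 1 bp were kept. Overlapping regions of different lists were merged, and where a pair had several, its level was their mean weighted by CpG sites. A gene's difference is the mean over pairs of such weighted means. Gene extents, start sites and promoter sequences came from RefSeq tables of GRCh38.p14, the same build, and all 6 symbols matched the gene table. ZNF469, ZNF559 and ZNF703 have no entry in the promoter table. Named genes were the 6, ZNF genes listed in at least 2 pairs, and partner or neighbour genes with a region. Since no site of the 6 genes is listed in all 3 pairs, none enters the limma fit of the 272 regions that are (limma 3.58.1, R 4.3.3, logit levels with an offset of 0.01, Benjamini-Hochberg adjusted p under 0.05), in which 261 rose and 2 fell, a count that the selection of regions differing in every pair largely sets. That step was tested on simulated levels with independent noise and a shift in part of the regions. Such a setting does not cover the selection of regions that differ in every pair, so nothing about the calls is drawn from it. Like-numbered libraries were taken as pairs because the lists pair them. Over the 272 regions, each library's deviation from its group mean correlated with that of its like-numbered partner at 0.287, 0.235 and 0.172. These values cannot decide on the pairing. Both levels of a pair come from that pair's own listed regions, whose boundaries and sites can differ between lists, and libraries of unlike number were not compared. Coordinates are those of the files, counted from 1. Alternatives were gene extents in place of windows, a minimum of 6 CpG sites, unweighted means, a stricter overlap, and each pair left out. Work was done in Python 3.11.15 with pandas 2.3.3.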

Additional observations from a re-analysis of the deposited data

How the results depend on the processing

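With RefSeq gene extents and 1 kb on either side in place of the windows, the 9 losses became 10 and the 2 gains became 8, the added regions all lying in ZNF469. A minimum of 6 CpG sites left all 11 regions, and asking for an overlap of at least 0.5 of the shorter region left the 4 repeated sites. Leaving out 1 pair gave 4 to 9 losses, 1 to 2 gains and 0 to 4 repeated sites. Both the repeated sites and the ZNF genes lower in at least 2 pairs (0 to 4) came to 0 without pair 1 and without pair 2, and were 4 without pair 3. ZNF genes with lower regions only ran from 8 to 13, those with higher regions only from 8 to 9, and those higher in at least 2 pairs from 1 to 3. In alternatives chosen after seeing the data, ZNF genes other than the 6 with lower regions only ran from 4 to 9 against 10, and those near a start from 2 to 6 against 6, with 1 pair left out. The mean differences of the 5 genes were not changed by the other windows, the CpG minimum or unweighted means. With 2 pairs of 1 direction, leaving out 1 says nothing about their stability. With the replicate number as a block, limma called 264 of the 272 regions listed in all 3 pairs higher and 2 lower, which touches no region of the 6 genes. These 272 were selected because each pair already differs there, so such calls follow largely from the selection. Leaving out 1 pair, limma called 258 to 264 higher and 2 to 3 lower. Without reads per region, no coverage minimum could be tried.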

Other observations

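Besides the 3 zinc finger sites, 13 regions were lower in both pair 1 and pair 2. Of all 16, 10 lay within 500 bp of a start site of any gene. They include SPART, which encodes spartin, with differences of -0.196 and -0.265, OLFM2 on chromosome 19, with -0.267 and -0.266, and the imprinted gene GNAS, with -0.369 and -0.144. At BCOR, which encodes a Polycomb-associated corepressor, the differences were -0.166 and -0.160, at a site 1086 bp from a start. These genes were named after their values had been seen.

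A further loss near the ZNF844 cluster lay in the noncoding gene ZNF433-AS1, at chr19:11987840-11987952, 75 kb before the ZNF844 window. It stood at 0.633 in control library 1 and 0.387 in overexpressing library 1 and was listed in pair 1 only.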
